A study of Mus musculus with 9 samples.

Results

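Cxcl12, a secreted chemokine, and its receptors Cxcr4 and Ackr3 were followed across the 3 kinds of mouse brain sample of this study. The probe sets were chosen by the platform annotation, as all those that name 1 gene, that gene being Cxcl12, Cxcr4 or Ackr3. This gave 5 of 45101 probe sets on the arrays and 3 of 18194 genes. These 3 genes were selected on earlier results of the same 9 arrays, so their levels and group differences are given as a description, with standard errors and without tests. Embryonic fragments are pieces of small brain vessels from NMRI embryos at embryonic day 18.5. Rest of brain is the brain tissue left without those fragments at the same age and in the same strain. Adult fragments are such vessel pieces from mice aged 1 year on a mixed C57/SV129 background, replicates 1 and 3 from males and replicate 2 from a female. Each group had 3 arrays labelled as biological replicates, and no sex is given for the embryos. The free-text description of rest of brain replicate 3 states another embryonic day than its title and age label, and the array stayed in its group. Age, strain and the RNA extraction kit (a micro kit for embryonic and a mini kit for adult tissue) differ together between adults and embryos and cannot be told apart. Below, "with age" and "between the ages" are short for adult against embryonic fragments and do not single out age. The series holds no adult rest of brain. Adult fragments against rest of brain therefore differ in these respects and in the tissue fraction at once. Values are GCRMA log2 intensities, and a value under 4 is treated as background. Array medians over all probe sets ranged from 3.58 to 3.67.

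Chemokines are small secreted proteins that attract cells along a gradient. Cxcl12 binds Cxcr4, a receptor that signals through inhibitory G proteins and drives migration, and Ackr3, an atypical receptor that recruits arrestin, takes up Cxcl12 and clears it from the surroundings. In the brain this system is known from the guidance of migrating interneurons and Cajal-Retzius cells, from endothelial cells of growing and arterial vessels, and from the retention of leukocytes at the vessel wall.

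The windows around the RefSeq start of each gene are shown because Cxcr4 on one side and Cxcl12 and Ackr3 on the other differed in opposite directions between the ages. Each window holds 250 bases before the start and 50 bases from it on, in GRCm38.p6, 5′ to 3′ on the strand of the gene. Cxcl12 lies on the plus strand at chr6:117168285-117168584, Cxcr4 on the minus strand at chr1:128592250-128592549 and Ackr3 on the plus strand at chr1:90203730-90204029. Capitals mark matches, on either strand, to the TATA box letters TATAAA, the GC box letters GGGCGG and the letters GCGTG, a variant of the core that hypoxia-inducible factors bind.
Cxcl12: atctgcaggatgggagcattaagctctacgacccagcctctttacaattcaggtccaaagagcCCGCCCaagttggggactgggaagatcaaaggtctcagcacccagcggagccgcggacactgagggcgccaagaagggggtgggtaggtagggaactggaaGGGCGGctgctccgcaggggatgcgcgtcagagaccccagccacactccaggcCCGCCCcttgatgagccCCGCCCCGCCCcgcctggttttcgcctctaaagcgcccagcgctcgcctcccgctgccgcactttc
Cxcr4: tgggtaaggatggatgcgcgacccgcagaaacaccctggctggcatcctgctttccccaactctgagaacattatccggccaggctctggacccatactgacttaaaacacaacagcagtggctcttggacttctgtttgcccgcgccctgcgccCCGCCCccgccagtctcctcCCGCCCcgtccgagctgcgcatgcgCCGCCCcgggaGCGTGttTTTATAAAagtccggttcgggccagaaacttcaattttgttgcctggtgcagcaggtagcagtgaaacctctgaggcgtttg
Ackr3: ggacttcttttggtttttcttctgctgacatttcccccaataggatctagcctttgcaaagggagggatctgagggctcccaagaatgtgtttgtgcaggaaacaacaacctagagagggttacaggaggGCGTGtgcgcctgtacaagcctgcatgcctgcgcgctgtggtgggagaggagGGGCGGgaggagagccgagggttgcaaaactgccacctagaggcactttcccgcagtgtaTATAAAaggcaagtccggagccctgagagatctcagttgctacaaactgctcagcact

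The GC box letters occurred 5 times in the Cxcl12 window, 3 times in that of Cxcr4 and 1 time in that of Ackr3. Matches of Cxcl12 beginning 16 and 11 bases before the start share a base. At least 1 match was found in 35.7% of 32851 RefSeq start windows of this length. The TATA box letters were found 2 times in the Cxcr4 window, as overlapping matches on both strands, 1 time in the Ackr3 window and 0 times in that of Cxcl12, against 13.6% of all windows with a match. The letters GCGTG occurred 1 time each in the windows of Cxcr4 and Ackr3 and 0 times in that of Cxcl12 (32.4% of all windows). The main hypoxia core, ACGTG, had 0 matches in the 3 windows (19.6% of all windows). A match is a run of letters, and binding was not measured.

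The identity of the groups was checked on marker genes. Counts of markers here and below stand beside these shares of all tested genes. In embryonic fragments against rest of brain 28.9% were higher and 37.2% lower. In adult against embryonic fragments 27.4% were higher and 29.7% lower, and in adult fragments against rest of brain 33.1% and 42.9%. All 8 endothelial markers were higher in embryonic fragments than in rest of brain and all 8 in adult fragments (limma adjusted p under 0.05 over 12009 tested genes). Their summed level ran from 16.52 to 16.68 in embryonic fragments, from 16.42 to 16.62 in adult fragments and from 8.78 to 9.54 in rest of brain (log2 of the summed intensities of an array). Pecam1, Tie1 and Emcn lay under 4 on every array of rest of brain. All 6 neuronal markers were lower in embryonic fragments than in rest of brain, with summed levels of 10.04 to 10.87 against 15.14 to 15.58, and adult fragments had 9.75 to 10.38. In such bulk samples, fewer cells of a type and less RNA per cell cannot be told apart.

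Cxcl12, the ligand, was highest in adult fragments, intermediate in embryonic fragments and lowest in rest of brain by its representing probe set, 1417574_at. Of its 3 probe sets this one had the highest mean over all 9 arrays. In rest of brain another, 1448823_at, was brighter, with a mean of 10.89 against 8.81. The choice thus leaned on the fragment arrays. By 1417574_at, values in embryonic fragments were 12.87, 12.95 and 12.79, and in rest of brain 8.73, 8.85 and 8.86. Adult fragments had 14.63, 14.11 and 14.38. The 3 groups did not overlap, and each gap between neighbouring groups was wider than the spread within them. The mean was 12.87 ± 0.08 in embryonic fragments, 8.81 ± 0.07 in rest of brain and 14.37 ± 0.26 in adult fragments (SD, n = 3). Embryonic fragments were thus 16.6-fold above rest of brain (log2 difference 4.06 ± 0.14 SE). Adult fragments were 2.83-fold above embryonic ones (1.5 ± 0.14) and 47.2-fold above rest of brain (5.56 ± 0.14). Among 12009 tested genes, 95.8% had a lower difference between embryonic fragments and rest of brain than Cxcl12 by this probe set. Cxcl12 was selected on these arrays, so this share is a description.

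A second probe set of Cxcl12, 1448823_at, was well above background on all 9 arrays and ordered the groups differently. Embryonic fragments had values of 9.74, 9.45 and 10.13, rest of brain 10.85, 10.86 and 10.95, and adult fragments 11.16, 10.63 and 10.73. Here embryonic fragments were the lowest group, below every other array, while adult fragments and rest of brain overlapped. The difference of embryonic fragments from rest of brain was -1.11 ± 0.20, that is, a 2.16-fold lower value, where the first probe set gave a 16.6-fold higher one. Between the ages both probe sets moved the same way, with 1.06 ± 0.20 by 1448823_at, or 2.09-fold. Adult fragments and rest of brain differed by -0.05 ± 0.20 by this probe set, within the spread of the arrays.

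The disagreement was seen on every array. The value of 1417574_at minus that of 1448823_at was 3.12, 3.50 and 2.66 in embryonic fragments and 3.47, 3.48 and 3.65 in adult fragments. In rest of brain it was -2.12, -2.01 and -2.09. A difference between probe sets on 1 array has no meaning as a level, but its shift between groups shows that the probe sets changed unequally. Vessel fragments of both ages stood on one side and rest of brain on the other. Which transcripts of Cxcl12 each probe set detects was not analysed here. The third probe set, 1439084_at, lay between 2.39 and 2.42 on all 9 arrays, at background, and gives no group difference.

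Markers of other cells that are known to make Cxcl12, fibroblasts of the meninges and arterial endothelium, were measured beside it. All 7 markers of meningeal fibroblasts were lower in embryonic fragments than in rest of brain (median -2.32), with summed levels of 12.04 to 12.45 against 13.77 to 13.92. In adult fragments the summed level was 11.82 to 12.20, and 6 of 7 were lower than in rest of brain (median -2.68). Arterial markers were higher in embryonic fragments in 6 of 6 tested cases (median 4.80), with summed levels of 14.25 to 14.54 against 9.63 to 10.21. Adult fragments had 15.30 to 15.41, although with age 2 of the 6 tested arterial markers were higher and 2 lower. Gja5 was under 4 on every array. The part of these cell types in the Cxcl12 values was not tested.

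Cxcr4, the signalling receptor, was present in both kinds of embryonic sample and at or near background in adult vessels. It has 1 probe set, 1448710_at. Its values were 10.15, 9.72 and 10.03 in embryonic fragments and 9.28, 9.43 and 9.58 in rest of brain. Adult fragments had 4.27, 3.23 and 3.47, so 2 of 3 arrays lay under 4. The adult arrays stood far below all embryonic ones, and the embryonic groups lay next to each other without overlap. Group means were 9.97 ± 0.22, 9.43 ± 0.15 and 3.66 ± 0.55 in the same order. The difference between embryonic fragments and rest of brain was 0.54 ± 0.26, or 1.45-fold. Its SE was 0.14 with only these 2 groups fitted. Adding the replicate number as a block to that fit gave 0.15, so the smaller SE came with leaving out the adult arrays. The fitted difference between adult and embryonic fragments was -6.31 ± 0.26, a 79.3-fold lower value that leans on adult values at background. Against rest of brain it was -5.77 ± 0.26.

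Leukocytes are rich in Cxcr4, and their markers were measured beside it. Of 4 lymphocyte markers on the arrays, Cd3e, Cd3g and Cd79a lay under 4 on every array of all groups, and Cd79b on every array of rest of brain. S100a9, Ngp, Camp and Ltf, 4 of 5 neutrophil markers, lay under 4 on every fragment array of both ages. In rest of brain only Ltf did, and the summed level of the 5 ranged from 6.58 to 9.85. Microglial and macrophage markers were at summed levels of 15.44 to 16.80 in embryonic and 16.25 to 16.78 in adult fragments. Among them 2 of 8 were higher and 1 lower with age. Markers of endothelial tip cells, the leading cells of sprouts and a known site of Cxcr4, were lower with age in 3 of 4 cases and higher in 1. Their summed level went from 12.26 to 12.80 in embryonic to 10.80 to 11.88 in adult fragments. Apln, Angpt2 and Pgf were the lower ones and Esm1 the higher one. Neural progenitor markers were lower with age in 3 of 5 cases, at 10.08 to 11.12 in embryonic and 8.67 to 9.90 in adult fragments. All 5 of them were lower in embryonic fragments than in rest of brain. The 3 tested Cajal-Retzius markers were also lower there, with summed levels of 5.73 to 7.87 against 11.99 to 12.69, and all 5 on the arrays lay under 4 on every adult array. The part of these cell types in the Cxcr4 values was not tested.

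Ackr3, the scavenging receptor, ran opposite to Cxcr4 and was brightest in adult vessels. Its probe set, 1417625_s_at, carries a suffix for probes shared between transcripts, and which these are was not analysed here. Embryonic fragments had values of 10.40, 10.26 and 10.18, rest of brain 11.30, 11.08 and 11.46, and adult fragments 13.77, 13.54 and 13.38. The groups did not overlap, and embryonic fragments were the lowest. Means were 10.28 ± 0.11, 11.28 ± 0.19 and 13.56 ± 0.20. Embryonic fragments differed from rest of brain by -1.0 ± 0.15, a 2.0-fold lower value. Adult fragments were 9.75-fold above embryonic fragments (3.29 ± 0.15) and 4.86-fold above rest of brain (2.28 ± 0.15). Of the tested genes, 97.1% had a lower difference between the ages, and 23.8% a lower one between embryonic fragments and rest of brain. Ackr3 was selected on these arrays, so both shares are a description.

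Ackr3 is known in smooth muscle, astrocytes and migrating interneurons besides endothelium. All 4 smooth muscle markers were higher in adult than in embryonic fragments (median 4.86), with summed levels of 15.50 to 15.64 against 12.04 to 12.78. Astrocyte markers were higher with age in 3 of 4 tested cases and lower in 1, with summed levels of 12.43 to 13.19 against 9.0 to 10.10. All 6 interneuron markers were lower in embryonic fragments than in rest of brain, at 9.15 to 9.42 against 13.89 to 14.15. Adult fragments had 7.57 to 8.62, and Dlx1, Dlx2, Dlx5 and Gad2 lay under 4 on every adult array. The part of these cell types in the Ackr3 values was not tested.

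**Figure D1:**
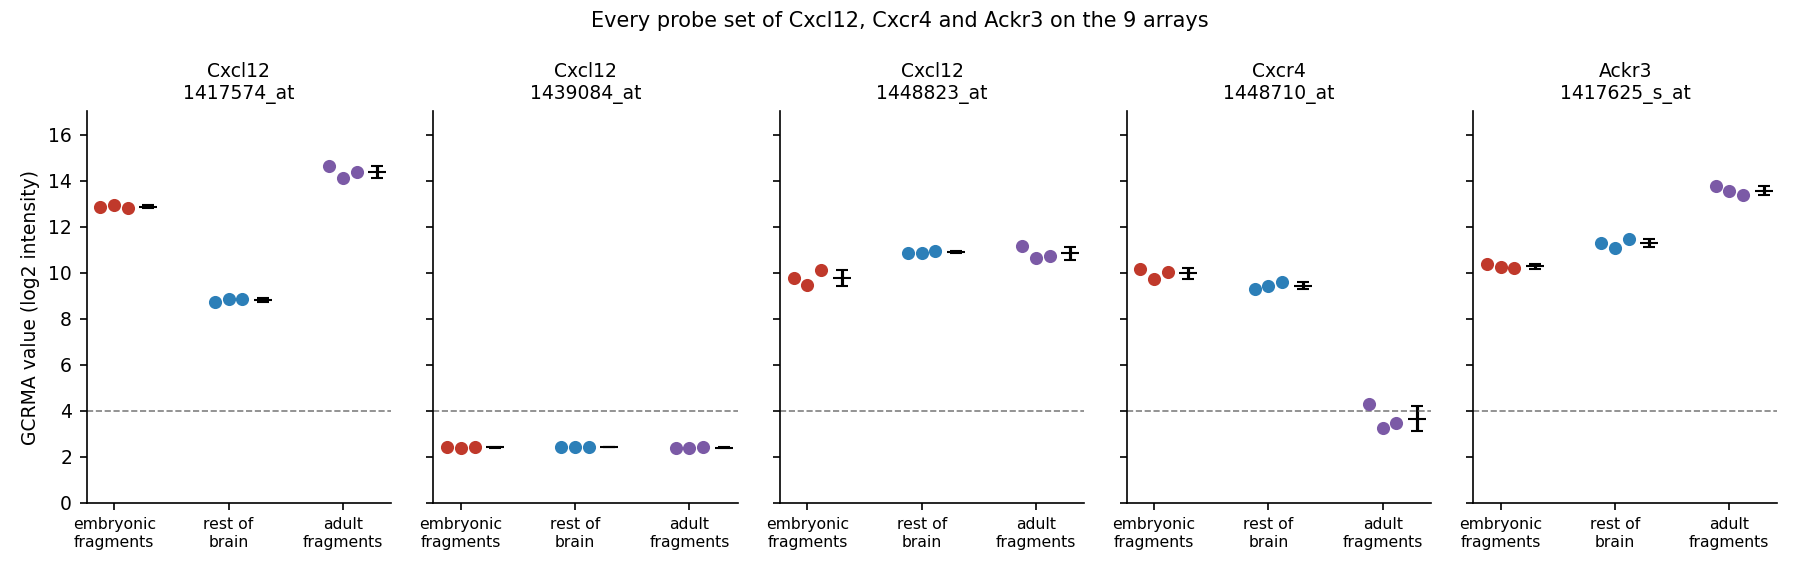
GCRMA log2 intensity (y axis) of the 5 probe sets of Cxcl12, Cxcr4 and Ackr3 on each array, with the group mean ± SD (n = 3) beside the points and a dashed line at the background value of 4. Cxcr4 stood at 4.27 or less in adult fragments, where Ackr3 reached 13.38 to 13.77, and the Cxcl12 probe sets ordered embryonic fragments and rest of brain oppositely.

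Set side by side, the comparisons share arrays and are not independent. From rest of brain to embryonic vessels the ligand differed by 4.06 by its representing probe set, Cxcr4 by 0.54 and Ackr3 by -1.0. From embryonic to adult vessels the ligand differed by 1.5, Cxcr4 by -6.31 and Ackr3 by 3.29. RNA of the ligand and of both receptors was thus above background in embryonic vessels. In adult vessels the ligand and Ackr3 were above background, and Cxcr4 was at or near it.

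**Figure D2:**
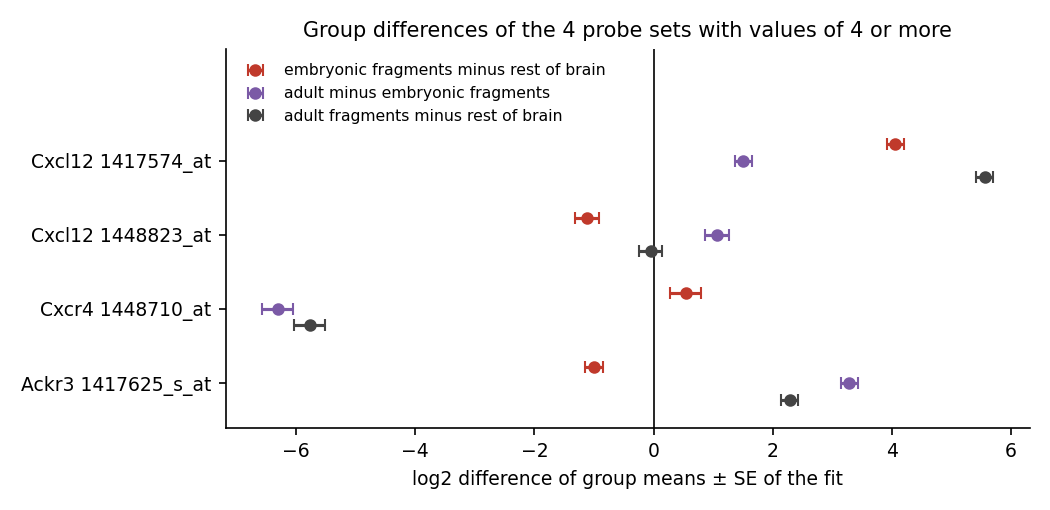
Log2 difference between groups, with the SE of the fit as error bars (x axis), for the 4 probe sets that reach a value of 4, in 3 comparisons marked by colour. The Cxcl12 probe sets lie at 4.06 and -1.11 for embryonic fragments minus rest of brain. Adult minus embryonic fragments, which also differ in strain and RNA kit, gives -6.31 for Cxcr4 and 3.29 for Ackr3.

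Beyond these 3 genes, 69 genes of the same signalling system were listed by role, and 60 could be tested. In embryonic fragments against rest of brain 30 were higher and 12 lower, where 28.9% of all 12009 tested genes were higher and 37.2% lower. Their median log2 difference was 0.38, against -0.10 over all genes. Between the ages 13 were higher in adult fragments and 19 lower, against 27.4% and 29.7% of all genes, with a median of -0.17 against -0.02. After cyclic loess between arrays this split was 18 higher and 17 lower. In adult fragments against rest of brain 31 were higher and 16 lower, against 33.1% and 42.9% of all genes (median 0.57 against -0.17).

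Of 4 tested other ligands and their partners, 3 were higher and 1 lower in adult fragments than in rest of brain, beside 33.1% and 42.9% of all genes. With age 1 was higher and 2 lower, beside 27.4% and 29.7% of all genes. Adrenomedullin, encoded by Adm, is a vessel-dilating peptide that Ackr3 also binds, and it was 137-fold higher in embryonic fragments (11.81 ± 0.39) than in rest of brain (4.71 ± 0.01, limma adjusted p = 5.23e-09). The 137-fold value leans on rest of brain values near the background value of 4. Adm was 9.90-fold lower in adult than in embryonic fragments (8.50 ± 0.15, limma adjusted p = 1.76e-06), opposite to Ackr3. Its probe set is marked for shared probes. Mif, a cytokine that can bind Cxcr4, was lower in embryonic fragments than in rest of brain (-0.85 ± 0.18, limma adjusted p = 0.00265) and lower again in adult fragments (-2.48 ± 0.18 against embryonic and -3.33 ± 0.18 against rest of brain). Cd74, the partner through which Mif signals and a chaperone of antigen presentation, was higher in adult fragments by 5.69 ± 0.54 over embryonic ones (limma adjusted p = 3.54e-05), which lay under 4 on 2 of 3 arrays. Cxcl11, another ligand of Ackr3, was 2.63-fold higher in embryonic and 3.06-fold higher in adult fragments than in rest of brain (limma adjusted p = 0.000146 and 4.49e-05), with an age difference of 0.22 ± 0.18 (limma adjusted p = 0.349).

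Among the subunits of inhibitory G proteins, Gnai2 and Gnai1 took opposite directions between vessels and the rest. Gnai2, the main inhibitory alpha subunit outside neurons, was higher in embryonic fragments by 1.18 ± 0.13, and Gnai1 differed by -1.17 ± 0.15 (limma adjusted p = 3.87e-05 and 0.000101). Gnai1 was lower again with age (-1.55 ± 0.15). Of 5 such genes, 0 were higher and 3 lower in adult than in embryonic fragments, beside 27.4% and 29.7% of all genes. Among the 3, Gnai2 (-0.45, limma adjusted p = 0.0161) lost its call after cyclic loess and without embryonic fragments replicate 2 (adjusted p = 0.0751 and 0.0570). Grk5, a kinase that phosphorylates activated receptors, was 12.6-fold higher in embryonic and 9.83-fold higher in adult fragments than in rest of brain. Grk3, a kinase of the same family, was lower in embryonic fragments than in rest of brain (-1.89 ± 0.18) and higher with age (1.35 ± 0.18, limma adjusted p = 0.000281). Its difference of -0.55 between adult fragments and rest of brain (limma adjusted p = 0.0225) lost its call without rest of brain replicate 2 or adult fragments replicate 2 (adjusted p = 0.0752 and 0.0708) and turned to 0.08 in the mean of its probe sets. Grk6 was lower with age by -0.47 ± 0.12 (limma adjusted p = 0.00891). The arrestins, which Ackr3 recruits, showed no called age difference, with 0.28 ± 0.13 for Arrb1 and -0.78 ± 0.43 for Arrb2 (limma adjusted p = 0.0932 and 0.151). Both were named for this role after their values were seen.

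RGS proteins end G protein signals. Rgs1 was higher in embryonic fragments than in rest of brain by 3.78 ± 0.57 and in adult fragments by 5.10 ± 0.57 (limma adjusted p = 0.000365 and 4.15e-05). Rgs3 was lower with age by -0.69 ± 0.14 (limma adjusted p = 0.00253). Of 19 downstream signalling genes 13 were higher and 0 lower in embryonic fragments than in rest of brain (median 0.88), beside 28.9% and 37.2% of all genes. Among the 13, the calls of Cdc42, Pik3r5 and Plcb2 were lost under some alternative settings. Cdc42 also changed sign in the mean of its probe sets. Pik3cg, the G protein-coupled PI3-kinase subunit of leukocytes, was at least 28.7-fold higher in embryonic and at least 19.8-fold higher in adult fragments, as all 3 arrays of rest of brain lay under 4. Such "at least" folds set the brighter group against the value of 4. Rgs1 and Pik3cg are abundant in microglia, and all 8 microglial and macrophage markers were higher in embryonic fragments than in rest of brain (summed levels 15.44 to 16.80 against 13.09 to 13.32). The part of these cells in the values of both genes was not tested. With age, 4 of the 19 downstream genes were higher and 5 lower, beside 27.4% and 29.7% of all genes. Ptk2b, a focal adhesion kinase that chemokine receptors activate, was at least 5.63-fold higher in adult fragments (limma adjusted p = 8.47e-06). Rac2, a GTPase of blood cells, had an age difference of -2.43 ± 0.71 (limma adjusted p = 0.0172), a call lost without embryonic fragments replicate 2 or 3 or adult fragments replicate 1 or 2 (adjusted p = 0.0519 to 0.0622). Akt1, a kinase of cell survival, was 2.52-fold lower in adult fragments than in rest of brain.

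Of the 6 tested proteases that trim Cxcl12, 2 were higher and 3 lower in adult than in embryonic fragments (27.4% and 29.7% of all genes), with a median of -0.82. Mmp9, a gelatinase, stood at 11.56 ± 0.96 in embryonic fragments, 7.69 ± 0.70 in rest of brain and 4.31 ± 0.33 in adult fragments, 152-fold lower with age (limma adjusted p = 5.29e-06). Cpm, a membrane carboxypeptidase that removes the last residue of Cxcl12, went the other way, at 4.55 ± 0.29, 6.85 ± 0.47 and 8.78 ± 0.31, 18.7-fold higher with age (limma adjusted p = 3.16e-06). The folds of Mmp9 and Cpm with age lean on group means near the background value of 4. The group order of Cpm was that of Ackr3. Dpp4, which cuts the first residues of Cxcl12, was higher in embryonic fragments than in rest of brain by 4.30 ± 0.61 (limma adjusted p = 0.000247), where rest of brain lay under 4 on 2 of 3 arrays. Fap, a relative of Dpp4, was 21.3-fold higher in adult fragments than in rest of brain. The age difference of Dpp4 was -0.51 ± 0.61 (limma adjusted p = 0.515).

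Heparan sulfate chains hold Cxcl12 at cell surfaces. Of 9 carriers and enzymes 1 was higher and 5 lower in embryonic fragments than in rest of brain, beside 28.9% and 37.2% of all genes. Among the 5, Sdc3 lost its call in 7 of 22 alternatives and Hs2st1 in the mean of its probe sets. Gpc1, a glypican of neurons, was 34.3-fold lower (5.73 ± 0.38 against 10.82 ± 0.17, limma adjusted p = 8.06e-08), and the chain-building enzyme Ext2 was 1.89-fold higher. With age the syndecan Sdc2 was higher by 1.85 ± 0.27 (limma adjusted p = 0.000422), or by 0.65 and no longer called after quantile normalization once more (adjusted p = 0.0624). Ext1, the partner of Ext2, was lower by -2.07 ± 0.17 with age. In adult fragments against rest of brain, Sdc2 was 4.13-fold higher and Gpc1 42.0-fold lower.

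Among 7 transcription factors known to act on these genes, 6 were higher and 1 lower in embryonic fragments than in rest of brain, beside the same shares of all genes. Of the 6, Hif1a, Arnt and Yy1 lost their calls under some alternative settings. Klf2, a factor induced by blood flow, was 107-fold higher in embryonic and 190.1-fold higher in adult fragments than in rest of brain, and 1.77-fold higher in adult than in embryonic fragments (limma adjusted p = 0.00567). Foxc2 was the lower one at -0.78 ± 0.29 (limma adjusted p = 0.0417), a call lost without any 1 embryonic fragments array, without rest of brain replicate 1 or 2 or without adult fragments replicate 2 (adjusted p = 0.0545 to 0.145). In adult fragments against rest of brain the difference of Foxc2 was -0.99 ± 0.29 (limma adjusted p = 0.0130, under 4 on 1 of 3 adult arrays). Arnt, the partner of hypoxia-inducible factors, had an age difference of -0.53 ± 0.13 (limma adjusted p = 0.00693) by a probe set marked for shared probes. Without such probe sets it was 0.85 (limma adjusted p = 0.00378), the opposite direction, and in the mean of its probe sets 0.41. Epas1, the endothelial hypoxia-inducible factor, was chosen after its values were seen, and stood at 14.70 ± 0.08, 9.52 ± 0.20 and 15.38 ± 0.06 in embryonic fragments, rest of brain and adult fragments.

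**Figure D3:**
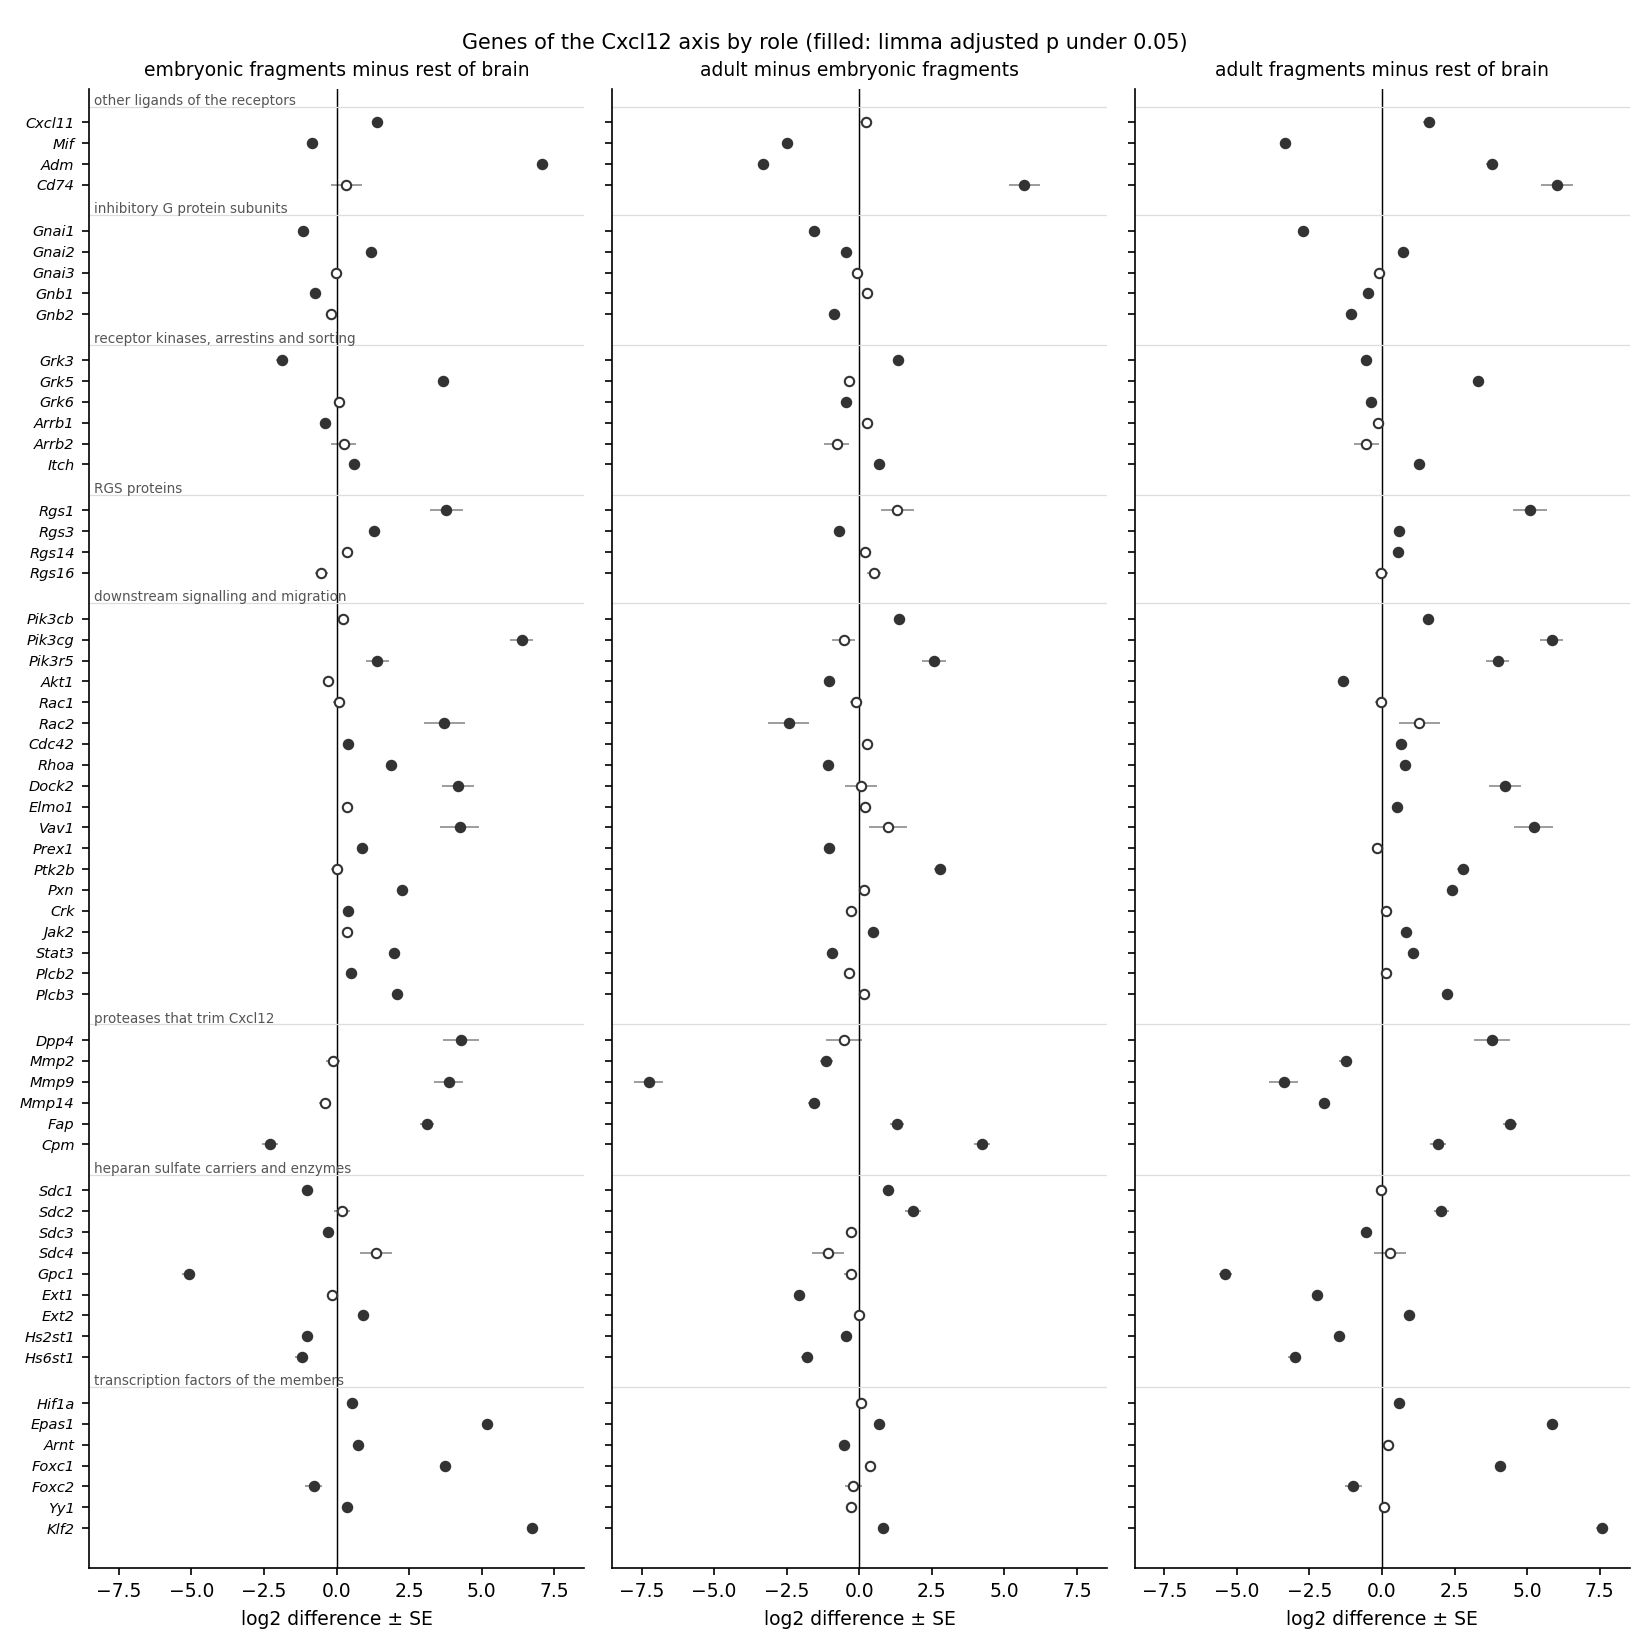
Log2 difference ± SE of the fit (x axes, 1 panel per comparison) for the 60 tested genes of the Cxcl12 system, ordered by role, with filled points for a limma adjusted p under 0.05. Mmp9 and Cpm lie at -7.25 and 4.23 in the comparison between the ages, and Adm at 7.09 in embryonic fragments minus rest of brain.

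The other chemokines and chemokine receptors give a measure of how the family behaved. Of 58 listed genes 53 were on the arrays and 25 reached the minimum for a test, a minimum that a gene can meet through its brightest group alone. In embryonic fragments against rest of brain 17 were higher and 3 lower, beside 28.9% and 37.2% of all genes. The microglial and macrophage markers given above were higher there too, and their part in these counts was not tested. Cxcl2, a neutrophil attractant, was at least 21.9-fold higher (limma adjusted p = 2.25e-05), and the monocyte attractant Ccl12 was higher by 5.30 ± 0.49, with rest of brain under 4 on 2 of 3 arrays. Ccl27a, Ccl25 and Cxcl14 were lower, at -3.62 ± 0.39, -1.01 ± 0.34 and -0.78 ± 0.18. The call of Ccl25 (limma adjusted p = 0.0261) was lost without any 1 of the 6 embryonic arrays (adjusted p = 0.0573 to 0.0777).

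With age 8 of these genes were higher and 7 lower, beside 27.4% and 29.7% of all genes. Cx3cl1, a membrane-bound chemokine that microglia sense, was 9.26-fold higher in adult than in embryonic fragments (9.87 ± 0.33 against 6.66 ± 0.07, limma adjusted p = 4.49e-06), and Cxcl10, induced by interferon, was 4.36-fold higher. Cxcl16 had a difference of 2.47 ± 0.85 (limma adjusted p = 0.0353) with an SD of 2.10 in adult fragments, and its call was lost without any 1 of 8 arrays, all but adult fragments replicate 1 (adjusted p = 0.0524 to 0.0830). Pf4, a chemokine of platelets and macrophages, was 23.0-fold lower in adult fragments, and Ccl7 at least 6.68-fold lower. In adult fragments against rest of brain 16 were higher and 3 lower, beside 33.1% and 42.9% of all genes. Ccrl2, an atypical receptor-like protein that presents ligand, was at least 44.0-fold higher there (limma adjusted p = 2.26e-08), and Ccl12 was higher by 4.88 ± 0.49. Ccl27a, Ccl25 and Pf4 were the lower ones, at -2.30 ± 0.39, -1.85 ± 0.34 and -0.81 ± 0.18.

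The other atypical receptors, which like Ackr3 bind chemokines without G protein signals, each had a pattern of their own. Ackr2, a scavenger of inflammatory CC chemokines, had values of 11.08, 10.80 and 10.16 in embryonic fragments and lay under 4 on all arrays of the other groups. It was at least 103-fold higher in embryonic fragments than in rest of brain and than in adult fragments (limma adjusted p = 3.81e-08 and 1.33e-07), the reverse of Ackr3 between the ages. Ackr4, a scavenger of homeostatic CC chemokines, had 7.76, 7.64 and 7.93 in embryonic and 9.06, 9.90 and 8.77 in adult fragments, and all 3 rest of brain arrays lay under 4. It was at least 38.0-fold higher in adult fragments than in rest of brain and 2.77-fold higher with age (limma adjusted p = 0.00220). Ackr1, a chemokine transporter of venules, was higher with age by 1.61 ± 0.45 (limma adjusted p = 0.0142). Its values of 8.70, 9.32 and 10.78 in adult fragments spread widely, and its call was lost with these groups fitted alone (adjusted p = 0.0544). Ackr1 was named after its values were seen.

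**Figure D4:**
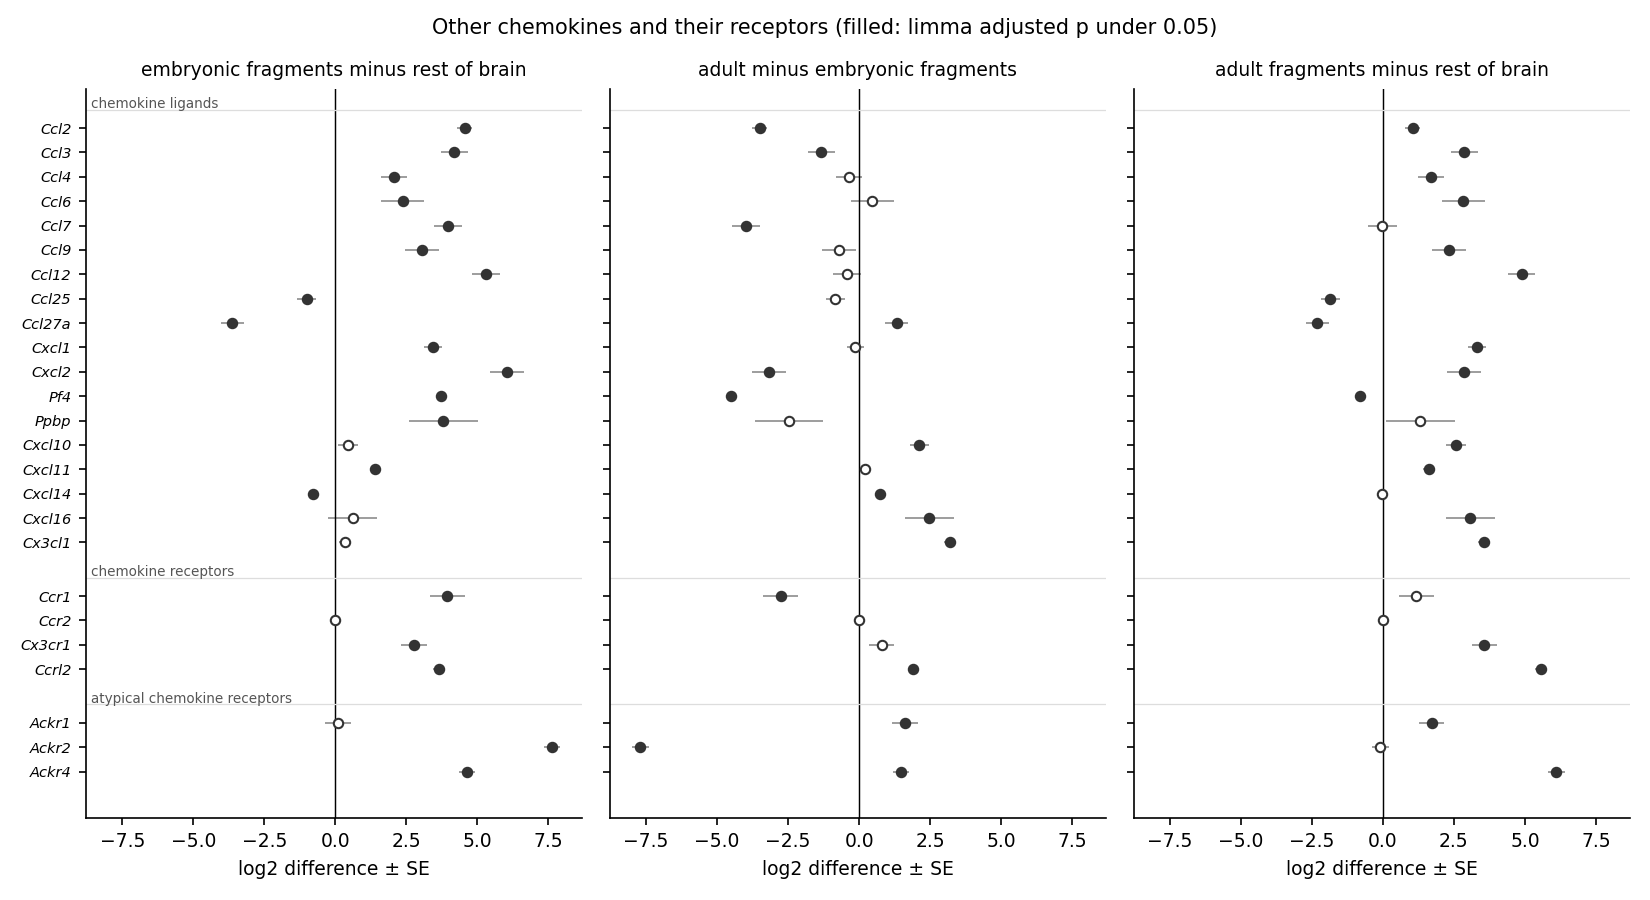
Log2 difference ± SE of the fit (x axes, 1 panel per comparison) for 25 tested chemokines and chemokine receptors other than Cxcl12, Cxcr4 and Ackr3, with filled points for a limma adjusted p under 0.05. Ackr2 lies at 7.61 and Ackr4 at 4.64 in embryonic fragments minus rest of brain, and at -7.70 and 1.47 in adult minus embryonic fragments, where groups under 4 enter at their fitted values.

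The genes with the most similar profiles over the 9 arrays were found by the root mean square distance between profiles, each centred on its mean. For Cxcl12 by 1417574_at these were Parp4 (distance 0.16 on the log2 scale), Sgms1, Ddx58, Vil1 and Tnfaip2 (0.25), with Pearson's r of 0.995 to 0.998. Sgms1, an enzyme of sphingomyelin synthesis, had means of 14.11 ± 0.14, 9.81 ± 0.09 and 15.46 ± 0.01 in embryonic fragments, rest of brain and adult fragments. Parp4, Vil1 and Tnfaip2 had means of 2.35, 2.68 and 3.87 in rest of brain, under the background value of 4.

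For Cxcr4 the nearest were AI506816 (0.29), Cenpe, Grp, Aurkb and Tk1 (0.41), with r of 0.993 to 0.995. Cenpe, a motor of dividing chromosomes, had means of 9.01 ± 0.17, 8.68 ± 0.29 and 2.44 ± 0.28. Aurkb, a kinase of mitosis, had 9.50 ± 0.18, 9.25 ± 0.07 and 3.77 ± 0.44, and Tk1, a thymidine kinase of dividing cells, 9.34 ± 0.35, 8.46 ± 0.08 and 2.45 ± 0.09. All 5 had an adult mean under 4, as Cxcr4 had.

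For Ackr3 the nearest were Asb13 (0.16), Osbpl1a, Zmat1, Atp8a1 and Npy1r (0.27), with r of 0.981 to 0.994. Npy1r, a receptor of neuropeptide Y, had means of 4.26 ± 0.04, 5.47 ± 0.40 and 7.63 ± 0.27. Atp8a1, a flippase of membrane lipids, had 9.82 ± 0.21, 11.11 ± 0.24 and 12.92 ± 0.36. Likeness over 9 arrays rests on 3 group means, and no test is attached to it.

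**Figure D5:**
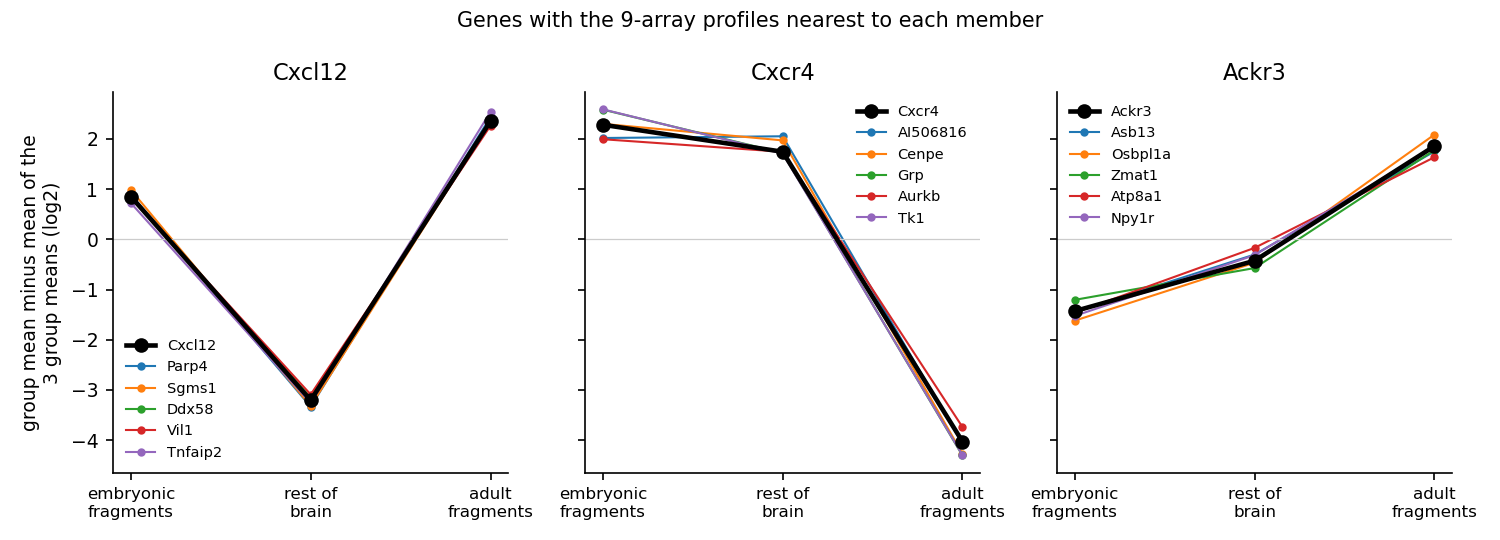
Group means of Cxcl12, Cxcr4 and Ackr3 (black) and of the 5 genes nearest to each over the 9 arrays (coloured), after subtracting the mean of the 3 group means, on a log2 scale. Cxcl12 and its neighbours have their minimum in rest of brain, Cxcr4 and its neighbours in adult fragments, and Ackr3 and its neighbours in embryonic fragments.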

How the data were processed

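The authors' deposited values are log2 intensities, 1 per probe set and array, for which the submitters' processing notes list GCRMA 2.6.0 and R 2.4.1. This method corrects background by base composition, normalizes arrays by quantiles and summarises probes, so a change in total RNA per cell is not visible. That the scale is log2 was read from the range of the values. Scanner files and scan dates were not used here. The number of arrays limits the precision.

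Of 45101 probe sets 34958 name 1 gene. The probe set of highest mean stood for its gene, and 12009 genes that reached 4 on 3 or more arrays were tested. Group comparisons used limma 3.58.1 under R 4.3.3 (lmFit, eBayes, 2-sided, 9 arrays in 1 fit, Benjamini-Hochberg over all tested genes, called at an adjusted p under 0.05). Differences of Cxcl12, Cxcr4 and Ackr3 come from the same model fitted to 20637 probe sets. The fit was tested on simulated data. The SD and p-values cover the spread between samples labelled as biological replicates.

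The 3 genes and all gene lists were chosen with earlier results of these data known. Named were the called gene with the largest difference in each direction of each role list, the 3 largest in each direction among chemokines, and the 5 nearest profiles. Deviations from the group means had r = 0.194, 0.199 and 0.217 across genes between same-numbered embryonic fragments and rest of brain. Between differently numbered ones r ran from -0.209 to -0.021. Same-numbered adult and embryonic fragments had r = 0.0325, -0.0826 and 0.214. Values as high also occurred between samples of different ages and numbers, as 0.208 for adult fragments replicate 2 with embryonic fragments replicate 1. This check therefore cannot settle whether the numbers pair samples. Promoter sequences are from RefSeq (GRCm38.p6), and all 3 genes were matched by symbol. Alternatives covered normalization, filter, low values, choice of probe set, samples fitted, weights, trend, the replicate block and leaving out each array.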

Additional observations from a re-analysis of the deposited data

How the results depend on the processing

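Of 195 values of the 9 group differences of Cxcl12, Cxcr4 and Ackr3 under the alternatives, 182 moved by less than the spread between replicates, 8 moved further and 5 changed sign. The choice of the Cxcl12 probe set accounted for all sign changes. The probe set 1448823_at gave -1.11 for embryonic fragments minus rest of brain, 1.06 for adult minus embryonic fragments and -0.049 for adult fragments minus rest of brain. The probe set 1439084_at, at background, gave -0.012, -0.0057 and -0.018, and the mean of all probe sets gave 0.98, 0.85 and 1.83. For Cxcr4, values under 4 set to 4 gave -5.88 for adult minus embryonic fragments and -5.34 for adult fragments minus rest of brain, and an offset on low values gave -5.13 and -4.61. Under all other alternatives Cxcr4 ran from 0.44 to 0.66 for embryonic fragments minus rest of brain and from -6.62 to -6.09 with age, and Ackr3 from 3.18 to 3.42 with age. Ackr3 has no value without probe sets marked as sharing probes, since its single probe set is one of them. That alternative left 1 chemokine gene lower in embryonic fragments than in rest of brain and 3 higher with age, since fewer genes could be tested. All other counts of the listed genes and of all genes were within 1.5 times their value. The replicate block was fitted without the adult arrays. With it, Cxcr4 kept 0.54 between the embryonic groups, 33 genes of the Cxcl12 system were higher and 13 lower, and no count moved by over 1.5 times. Cyclic loess moved the median over all genes from -0.17 to -0.03 in adult fragments minus rest of brain.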
